A study of Saccharomyces cerevisiae with 22 samples.

Results

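The Kennedy pathway of budding yeast was followed here through the mRNA of its 6 genes. They were chosen by name as the genes of its enzymes, and were 6 of the 7126 entries of the count table. Earlier results of these data were known when the genes, the lists of other lipid genes and the tests were chosen. All 6 were abundant enough to be tested, among 6278 genes. The kinases are CKI1 (YLR133W) and EKI1 (YDR147W), the cytidylyl-transferases are PCT1 (YGR202C) and ECT1 (YGR007W), and the phosphotransferases are CPT1 (YNL130C) and EPT1 (YHR123W).

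The study sequenced polyA RNA of strain W303 in 22 libraries. All cells grew in rich medium with 2% raffinose, carried a 2u plasmid, which is kept in many copies, and received 2% galactose for 4 h. The plasmid was empty (5 libraries), carried PSD1 (6 libraries) or carried V5-tagged PSD1 (5 libraries), with either form of PSD1 driven by the galactose-inducible GAL1-10 promoter. In a further 6 libraries the PSD1 plasmid was in cells with a PDR3 deletion, and PDR3 encodes a transcription factor of drug resistance genes. These groups are called empty-vector, PSD1, V5-PSD1 and pdr3-deletion cells below. High expression from a plasmid limits them as a model of native PSD1. No group carried the PDR3 deletion with an empty plasmid, so the deletion was measured only under PSD1 induction. Whether the replicates of a group were grown as separate cultures is not given by the labels, and each p-value therefore rests on library-to-library spread that may be technical.

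The pathway salvages choline and ethanolamine into the membrane lipids phosphatidylcholine and phosphatidylethanolamine. A kinase phosphorylates the headgroup, a cytidylyl-transferase activates it with CTP, and a phosphotransferase joins it to diacylglycerol. The other route to these lipids in yeast starts from CDP-diacylglycerol and passes through phosphatidylserine. Psd1, the mitochondrial phosphatidylserine decarboxylase, makes phosphatidylethanolamine on that route, and methylation then gives phosphatidylcholine. The genes of both routes include targets of the activator pair Ino2 and Ino4, which bind an element with the core CATGTG and are held back by the repressor Opi1.

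Sequencing depth ran from 8152941 to 20839061 counts per library. Levels are given in CPM, a gene's count scaled to the size of its library, and comparisons between genes in FPKM, which is also scaled to gene length. PSD1 mRNA was at 431 ± 143 CPM (SD, n = 5) in empty-vector cells, and at 15300 ± 6040 (n = 6), 18100 ± 4810 (n = 6) and 24700 ± 4200 (n = 5) CPM in PSD1, pdr3-deletion and V5-PSD1 cells. PDR3 had 1 to 3 counts in each pdr3-deletion library and a mean of at least 81.8 CPM in the other groups, so both targeted genes followed the labels. The first digit of the library number split the libraries into 12 numbered from 5 and 10 numbered from 6, each with all 4 groups. This digit was a term of the main comparisons of levels between groups, but not of the tests of gene ratios. What the digit stands for is not given in the sources used here. In RNA from whole cultures, fewer cells with a transcript and less of it per cell cannot be told apart.

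The promoters of the 6 genes were searched because the activator Ino2-Ino4 is known to act on lipid genes through this element. The letters CATGTGAA, searched on both strands of the 300 bases before each start codon, were found in 3 of the 6 genes and in 54 of 6001 yeast promoters (0.9%). The 3 genes were CKI1, EKI1 and CPT1. The shorter core CATGTG, which CATGTGAA contains, was in the same 3 genes and in 429 promoters (7.15%). A longer form of the element, which starts with CATGTGAA, was also searched. It was in 0 of the 6 genes and in 2 of the 6001 promoters (0.0333%). The 30-base windows below are printed 5′ to 3′ on the strand of the named gene, from the R64 sequence (sacCer3), with CATGTGAA or its reverse complement TTCACATG in capitals. CDS1, INO2 and ITR1 are shown for comparison, as lipid genes that hold the element and whose mRNA levels were among those most like the levels of CPT1 or EPT1. Over all 14 genes outside the pathway that are named for likeness to a member, 5 held CATGTGAA: these genes, YEL073C and USB1. SAM2 and MOT2, also like CPT1 and EPT1, were without it. Among the 14 genes, only YEL073C held the longer form.
CKI1, chrXII:408239-408268, plus strand: atggtataataTTCACATGgtgctctaccg
EKI1, chrIV:751403-751432, plus strand: ccactagacagCATGTGAAaacggtgatga
CPT1, chrXIV:380977-381006, minus strand: cgattaaagtgCATGTGAAaattcgcggga
CDS1, chrII:297886-297915, minus strand: agatgggatgaCATGTGAAaagtgtaacaa
INO2, chrIV:699594-699623, minus strand: agtacaacacaCATGTGAAtttttttcagt
ITR1, chrIV:1445733-1445762, minus strand: tttctgttctcTTCACATGcgttaggtata
ITR1, chrIV:1445670-1445699, minus strand: cttccccaccgCATGTGAAaaaagctcgac
The match lay 195 to 188 bases before the start codon of CKI1, 217 to 210 before EKI1 and 164 to 157 before CPT1. The CKI1 match was in the divergent promoter that CKI1 shares with USB1, and it lay 102 to 95 bases before the start codon of USB1. No match was in the windows of PCT1, ECT1 and EPT1, which says only that these letters are not in those windows. TCCGCGGA and TCCACGGA, forms of the element that Pdr1 and Pdr3 bind, were in none of the 6 windows, and in 12 (0.2%) and 27 (0.45%) of the 6001 promoters. A match is a sequence feature and no measure of binding.

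At the level of mRNA per length, CPT1 was the most abundant of the 6 genes and EKI1 the least. In empty-vector cells the mean FPKM was 237 for CPT1, 136 for PCT1, 113 for ECT1, 102 for CKI1, 84.3 for EPT1 and 39.2 for EKI1. The order was the same in the other groups. The libraries of CPT1 lay above those of PCT1 in every group, and the libraries of EPT1 lay above those of EKI1 in every group. The neighbours PCT1 and ECT1 overlapped in PSD1 and pdr3-deletion cells, ECT1 and CKI1 overlapped in every group but V5-PSD1, and CKI1 and EPT1 overlapped in every group but pdr3-deletion cells. The order of the pairs that overlapped was not beyond the spread of their libraries there.

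**Figure D1:**
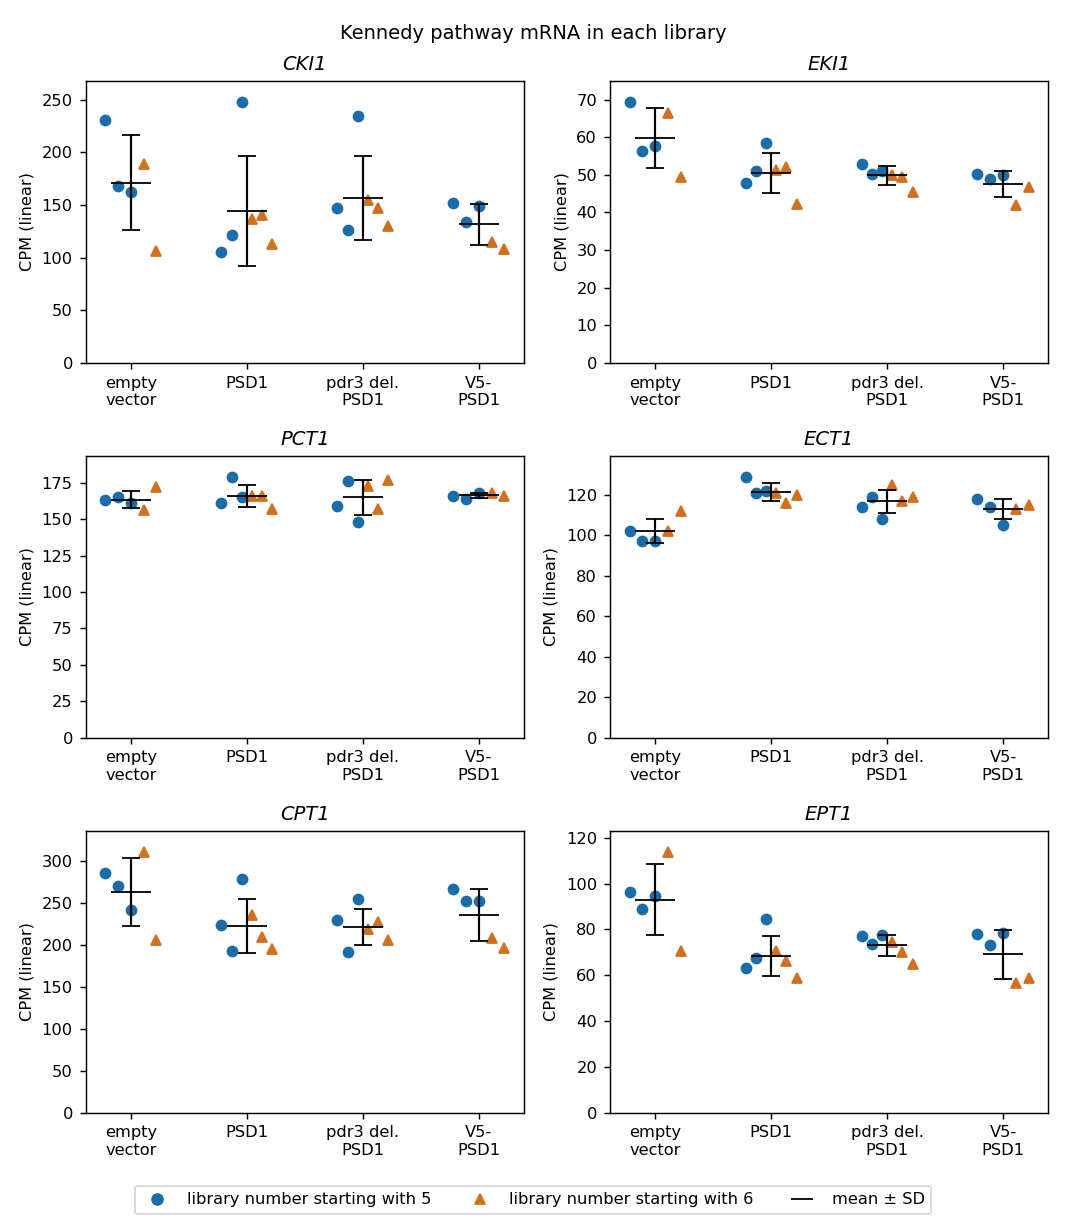
Level of each Kennedy pathway gene in each library, in CPM on linear axes from 0. Points are libraries, circles for numbers starting with 5 and triangles for numbers starting with 6, and bars are the mean ± SD of 5 or 6 libraries. All 6 PSD1 libraries of ECT1 lie above the 5 empty-vector libraries, and 5 of 6 of EPT1 lie below them.

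With the PSD1 plasmid, EPT1 and EKI1 were lower than with the empty vector and ECT1 was higher, and CKI1, PCT1 and CPT1 did not pass the test. The question of this comparison is what induction of PSD1 changes. Over all tested genes, 56.6% passed at an adjusted p of 0.05 in edgeR's quasi-likelihood test, 29.7% higher and 26.9% lower, against 3 of the 6 members, 1 higher and 2 lower. A share of 3 in 6 was near this background. The median log2 fold change of the 6 genes was −0.22, against 0.02 for all tested genes.

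With the V5-PSD1 plasmid, EPT1 and EKI1 were lower than with the empty vector, and ECT1 did not pass. In this comparison 3.03% of all tested genes passed, 2.53% higher and 0.494% lower, against 2 of the 6 members, both lower. The median log2 fold change was −0.25 for the members and 0.02 for all genes. Both calls depended on single libraries, which are named with each gene.

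In pdr3-deletion cells, compared with empty-vector cells, ECT1 was again higher and EKI1 and EPT1 lower, where 47.5% of all genes passed, 26.1% higher and 21.4% lower. All 3 comparisons use the same 5 empty-vector libraries, so a library of that group moves all of them together. Between the 3 groups with a PSD1 plasmid, tagged or untagged, no member passed. This held for pdr3-deletion against PSD1 cells, where 0.414% of genes passed, for PSD1 against V5-PSD1 cells, where 40.5% passed, and for pdr3-deletion against V5-PSD1 cells, where 29.7% passed. At an unadjusted p under 0.05 in edgeR, the counts in these 3 comparisons were 0, 1 and 0 members. DESeq2 called no member in any of the 3, and limma on the FPKM values called ECT1 in PSD1 against V5-PSD1 cells alone.

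**Figure D2:**
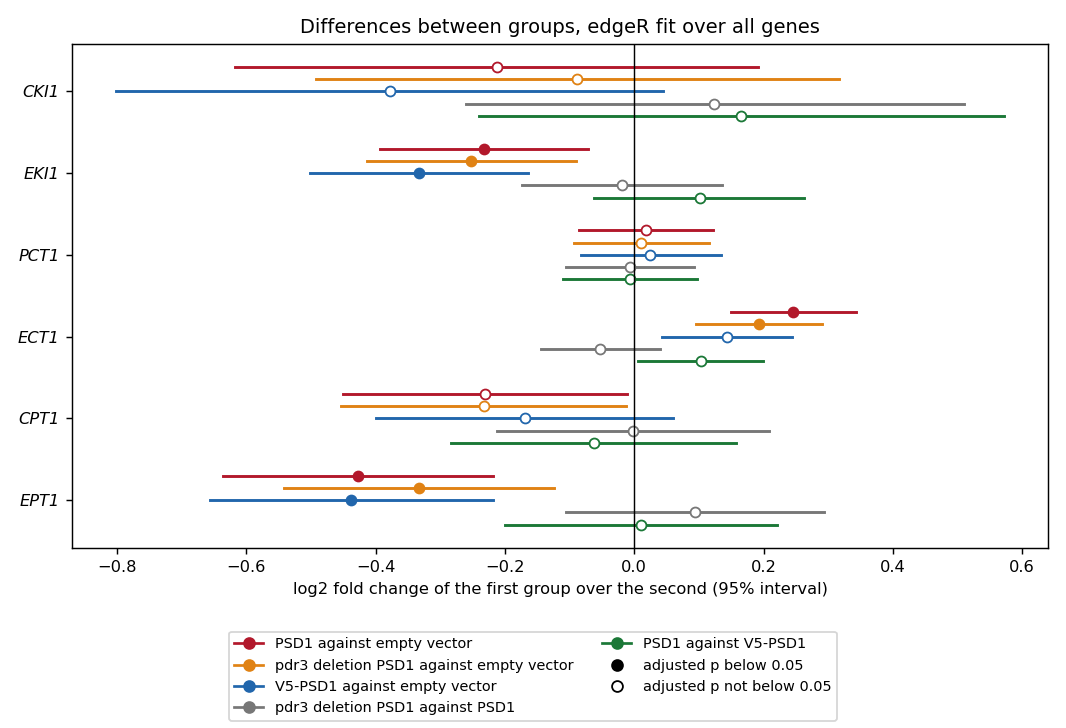
Log2 fold change of each Kennedy pathway gene in 5 comparisons from the edgeR fit over all genes, with 95% intervals on a log2 axis. Filled points passed an adjusted p of 0.05. EPT1 and EKI1 are lower than the empty vector in all 3 comparisons with it. ECT1 passes in both of these that hold the untagged PSD1 plasmid. No point is filled between groups with a PSD1 plasmid, tagged or untagged.

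CKI1, on chromosome XII from 408445 to 410193 with 1 coding exon, encodes the choline kinase, which can also phosphorylate ethanolamine. Its level was 231, 168, 162, 189 and 106 CPM in the 5 empty-vector libraries, and 152, 134, 149, 115 and 108 CPM in the 5 V5-PSD1 libraries. In PSD1 cells it ran from 105 to 248 CPM with a median of 129, and in pdr3-deletion cells from 126 to 235 with a median of 147. The groups overlapped, and replicate 3 stood far above the other 5 libraries in both of the latter groups.

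The mean level of CKI1 was 171 ± 45.2 CPM in empty-vector cells (SD, n = 5) and 144 ± 52.7 in PSD1 cells (n = 6), with a log2 fold change of −0.21 ± 0.19 SE, a 95% interval of −0.62 to 0.19 and an edgeR adjusted p of 0.362. Without PSD1 replicate 3 this became −0.41, with an adjusted p of 0.0479, so 1 library decided that CKI1 was not called. Against the empty vector, V5-PSD1 cells gave −0.38 (interval −0.80 to 0.04) and an edgeR adjusted p of 0.349. The coefficient of variation of CKI1 was 15% to 36.5% within groups, the highest of the 6 genes in every group but V5-PSD1, where EPT1 had 15.3%, so its intervals are wide. The deletion gave −0.09 over the empty vector (interval −0.49 to 0.32) and 0.12 over PSD1 cells (−0.26 to 0.51), and PSD1 gave 0.17 over V5-PSD1 cells (−0.24 to 0.57).

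EKI1, on chromosome IV from 751631 to 753235 with 1 coding exon, encodes the ethanolamine kinase. Its level was 69.4, 56.4, 57.6, 66.4 and 49.5 CPM in the 5 empty-vector libraries, and 50.1, 48.8, 50, 41.9 and 46.8 CPM in the 5 V5-PSD1 libraries. The PSD1 libraries ran from 42.3 to 58.4 CPM with a median of 51.3, and the pdr3-deletion libraries from 45.4 to 53 with a median of 50.1. The groups overlapped, with empty-vector replicate 5 the lowest of its group and the highest PSD1 library above 3 empty-vector libraries, and 3 of 5 V5-PSD1 libraries, 2 of 6 PSD1 libraries and 2 of 6 pdr3-deletion libraries lay below all empty-vector libraries.

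EKI1 fell in PSD1 cells by 14.9%, from 59.9 ± 8.04 to 50.5 ± 5.3 CPM (log2 fold change −0.23 ± 0.08 SE, edgeR adjusted p = 0.0149). It fell in V5-PSD1 cells by 20.6%, to 47.5 ± 3.41 CPM (−0.33 ± 0.08, edgeR adjusted p = 0.0249), and in pdr3-deletion cells by 16%, to 49.8 ± 2.53 CPM (−0.25 ± 0.08, edgeR adjusted p = 0.0112). All 3 differences were below 0 in libraries numbered from 5 and in those numbered from 6, at −0.22 and −0.24 for PSD1, −0.29 and −0.37 for V5-PSD1 and −0.24 and −0.25 for the deletion. They did not pass within either set of library numbers. The PSD1 call was lost when only these 2 groups were fitted (adjusted p = 0.0544), without empty-vector replicate 1 (−0.19, 0.0544) and without replicate 4 (−0.17, 0.0767). The V5-PSD1 call was lost with those 2 groups alone (0.0936), without empty-vector replicate 1 (−0.28, 0.0705) or 4 (−0.27, 0.0914), and without V5-PSD1 replicate 1 (−0.34, 0.0537), 2 (−0.33, 0.0609) or 4 (−0.30, 0.0896). The deletion call was lost without empty-vector replicate 4 (−0.18, 0.0584). Among the groups with a PSD1 plasmid EKI1 did not pass, with 95% intervals of −0.17 to 0.14 for the deletion over PSD1 and −0.06 to 0.26 for PSD1 over V5-PSD1.

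PCT1, on chromosome VII from 903474 to 904748 with 1 coding exon, encodes the choline-phosphate cytidylyl-transferase. Its coefficient of variation was 1.16% to 7.28% within groups, the lowest of the 6 genes in empty-vector and V5-PSD1 cells, and that of ECT1 was lower in PSD1 and pdr3-deletion cells. Its mean was 163 ± 6.01 CPM in empty-vector cells (SD, n = 5), 166 ± 7.6 in PSD1 cells (n = 6), 165 ± 12 in pdr3-deletion cells (n = 6) and 166 ± 1.92 in V5-PSD1 cells (n = 5). The 95% interval of its log2 fold change over the empty vector was −0.09 to 0.12 in PSD1 cells and −0.08 to 0.13 in V5-PSD1 cells, with edgeR adjusted p-values of 0.773 and 0.831. It was −0.09 to 0.12 in pdr3-deletion cells, and −0.11 to 0.09 for the deletion over PSD1 cells.

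ECT1, on chromosome VII from 506969 to 507940 with 1 coding exon, encodes the ethanolamine-phosphate cytidylyl-transferase. Its level was 102, 97.5, 97.5, 102 and 112 CPM in the 5 empty-vector libraries and 118, 114, 105, 113 and 115 CPM in the 5 V5-PSD1 libraries. In PSD1 cells it ran from 116 to 129 CPM with a median of 121, and in pdr3-deletion cells from 108 to 125 with a median of 118. All 6 PSD1 libraries lay above all empty-vector libraries, as did 5 of 6 pdr3-deletion and 4 of 5 V5-PSD1 libraries. Over all tested genes, 18.4% had every PSD1 library above every empty-vector library.

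ECT1 rose in PSD1 cells by 18.6%, from 102 ± 5.96 to 121 ± 4.09 CPM (log2 fold change 0.25 ± 0.05 SE, edgeR adjusted p = 0.000164). It rose by 14.3% in pdr3-deletion cells, to 117 ± 5.63 CPM (0.19 ± 0.05, edgeR adjusted p = 0.00197). In V5-PSD1 cells it was at 113 ± 4.62 CPM, and the difference of 0.14 (95% interval 0.04 to 0.24) did not pass, with an edgeR adjusted p of 0.121. PSD1 over V5-PSD1 cells was 0.10 (interval 0.01 to 0.20), with an adjusted p of 0.0836 in edgeR and 0.036 in limma on log2(FPKM + 1). Of the 6 PSD1 libraries 5 lay above all 5 V5-PSD1 libraries. In the count test ECT1 is thus not shown to respond differently to the tagged and the untagged plasmid. The difference of PSD1 from the empty vector was 0.32 in libraries numbered from 5 and 0.16 in those numbered from 6, where it did not pass alone (adjusted p = 0.0706). The deletion call was lost in either set of numbers alone (adjusted p = 0.18 and 0.0505). Leaving out any 1 library ended neither call.

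CPT1, on chromosome XIV from 379558 to 380831 with 2 coding exons, encodes the cholinephosphotransferase. Its level was 286, 270, 242, 311 and 206 CPM in the 5 empty-vector libraries and 267, 252, 252, 208 and 196 CPM in the 5 V5-PSD1 libraries. In PSD1 cells it ran from 193 to 278 CPM with a median of 217, and in pdr3-deletion cells from 192 to 255 with a median of 223. The groups overlapped, and empty-vector replicate 5 was among the low libraries.

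CPT1 was at 263 ± 40.5 CPM in empty-vector cells, 222 ± 31.7 in PSD1 cells and 222 ± 21.6 in pdr3-deletion cells. Its log2 fold change of −0.23 ± 0.11 SE in PSD1 cells did not pass (95% interval −0.45 to −0.01, edgeR adjusted p = 0.0675), nor did −0.23 in pdr3-deletion cells (adjusted p = 0.075) or −0.17 in V5-PSD1 cells (adjusted p = 0.449). This was a borderline value. The PSD1 difference passed under 7 of 13 other settings, DESeq2 (adjusted p = 0.0397) and limma on log2(FPKM + 1) (0.0304) among them. It also passed without empty-vector replicate 3 (−0.27, 0.0462) or 5 (−0.30, 0.0245), PSD1 replicate 3 (−0.30, 0.022) or pdr3-deletion replicate 4 (−0.26, 0.0484). The deletion difference passed under 6 of the 13 settings, and without empty-vector replicate 5 (−0.30, 0.0287). The interval was −0.21 to 0.21 for the deletion over PSD1 cells and −0.28 to 0.16 for PSD1 over V5-PSD1 cells.

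EPT1, on chromosome VIII from 354815 to 356081 with 2 coding exons, encodes the ethanolaminephosphotransferase. Its level was 96.4, 88.8, 94.8, 114 and 70.8 CPM in the 5 empty-vector libraries and 78.2, 73.4, 78.3, 56.5 and 59 CPM in the 5 V5-PSD1 libraries. In PSD1 cells it ran from 59 to 84.5 CPM with a median of 66.8, and in pdr3-deletion cells from 65 to 77.7 with a median of 74.2. Of the 6 PSD1 libraries 5 lay below all empty-vector libraries, against 2 of 5 V5-PSD1 and 2 of 6 pdr3-deletion libraries, and empty-vector replicate 5 was the low library that made the groups overlap.

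EPT1 fell by 25.6% in PSD1 cells, from 93 ± 15.7 to 68.5 ± 8.78 CPM (log2 fold change −0.43 ± 0.10 SE, edgeR adjusted p = 0.00123), the widest called difference among the 6 genes with that plasmid. This call held under all 13 other settings and without any 1 of the 22 libraries. It fell by 26.2% in V5-PSD1 cells, to 69.1 ± 10.5 CPM (−0.44 ± 0.11, edgeR adjusted p = 0.0233), and by 20.6% in pdr3-deletion cells, to 73 ± 4.76 CPM (−0.33 ± 0.10, edgeR adjusted p = 0.00971). The differences were −0.39 and −0.47 in the libraries numbered from 5 and from 6 for PSD1, −0.28 and −0.64 for V5-PSD1, and −0.29 and −0.37 for the deletion. The V5-PSD1 call was lost within either set of numbers (adjusted p = 0.583 and 0.0929), when only these 2 groups were fitted (0.104), and without empty-vector replicate 4 (−0.31, 0.0665), V5-PSD1 replicate 4 (−0.39, 0.0896) or V5-PSD1 replicate 5 (−0.41, 0.0644). The deletion call was lost within either set of numbers (0.0632 and 0.0793) and without empty-vector replicate 4 (−0.20, 0.0607). The interval of the deletion over PSD1 was −0.11 to 0.29, and that of PSD1 over V5-PSD1 was −0.20 to 0.22.

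At each step the yeast pathway has a gene named for choline and a gene named for ethanolamine, and their log2 count ratio within a library does not depend on library size. The ratios were compared in 9 exact two-sided permutation tests, 3 gene pairs in 3 comparisons, with Benjamini-Hochberg adjustment over the 9. These tests had no term for the first digit of the library number. PCT1 over ECT1 was 0.68 ± 0.06 in empty-vector cells (SD, n = 5) and 0.45 ± 0.09 in PSD1 cells (n = 6). The difference was −0.23 (exact permutation p = 0.00433, adjusted 0.0357), and 6 of 6 PSD1 libraries lay below all empty-vector libraries. It was −0.28 in libraries numbered from 5 and −0.16 in those numbered from 6. V5-PSD1 cells differed from the empty vector by −0.12 (exact permutation p = 0.0397, adjusted 0.0893), and pdr3-deletion from PSD1 cells by 0.04 (adjusted 0.5), and neither passed.

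CPT1 over EPT1 had a median of 1.54 in empty-vector cells (SD 0.10, n = 5) and 1.77 in V5-PSD1 cells (SD 0.07, n = 5). The means differed by 0.27 (exact permutation p = 0.00794, adjusted 0.0357), and 5 of 5 V5-PSD1 libraries lay above all empty-vector libraries. It was 0.24 in libraries numbered from 5 and 0.31 in those numbered from 6. In PSD1 cells the median ratio was 1.72 (SD 0.10, n = 6), with 5 of 6 libraries above all empty-vector libraries, and the difference of 0.19 did not pass (exact permutation p = 0.0216, adjusted 0.0649). Pdr3-deletion cells differed from PSD1 cells by −0.10 (adjusted 0.327).

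CKI1 over EKI1 differed from the empty vector by −0.03 in PSD1 and −0.02 in V5-PSD1 cells, with an adjusted exact permutation p of 0.866 for both. Pdr3-deletion cells were 0.17 above PSD1 cells, with an adjusted exact permutation p of 0.504. Replicate numbers were taken to pair the libraries of the last comparison, from correlations in these same data. Taken as 6 pairs, the CKI1 over EKI1 difference had an exact permutation p of 0.0312 before adjustment, the smallest that 6 pairs can give. The same paired test gave 0.312 for PCT1 over ECT1 and 0.0938 for CPT1 over EPT1, also before adjustment. Both calls among the ratios were lost when any 1 empty-vector library was left out, and the CPT1 over EPT1 call also without V5-PSD1 replicate 1, 2, 4 or 5. Fewer libraries raise the smallest p that these tests can give.

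**Figure D3:**
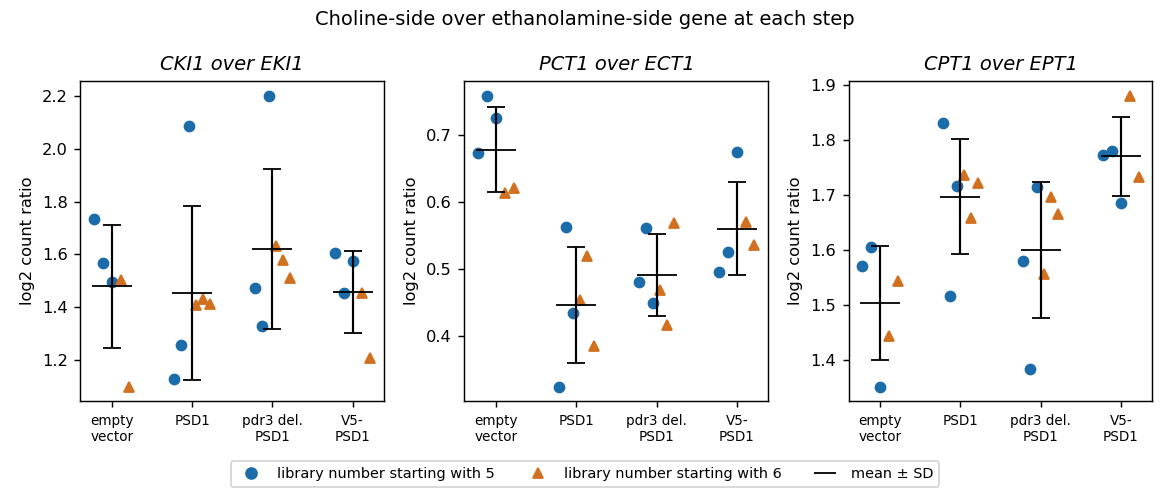
Log2 count ratio of the choline gene over the ethanolamine gene of each step, by library. Points are libraries, bars are the mean ± SD of 5 or 6 libraries, and the axes do not start at 0. PCT1 over ECT1 is lower in all 6 PSD1 libraries than in all 5 empty-vector libraries, and CPT1 over EPT1 is higher in all 5 V5-PSD1 libraries than in the empty-vector libraries.

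Across the 22 libraries the kinase and phosphotransferase genes varied together, and the cytidylyl-transferase genes had negative correlations with them. In log2 CPM, the 6 pairs among CKI1, EKI1, CPT1 and EPT1 had Pearson r from 0.74 to 0.91. The range was 0.75 to 0.87 after group means were removed, 0.53 to 0.84 in the 12 libraries numbered from 5 and 0.80 to 0.94 in the 10 numbered from 6. The 8 pairs of one of these genes with PCT1 or ECT1 had r from −0.67 to −0.22, and from −0.51 to −0.18 after group means were removed. In that step the pairs of ECT1 moved most, from −0.67 to −0.35 with EPT1, from −0.56 to −0.28 with EKI1 and from −0.54 to −0.30 with CPT1. PCT1 with ECT1 had r of 0.32. The libraries share the groups, the depth and the scaling, so these values are descriptions. The 4 libraries with the lowest numbers were empty-vector replicate 1, PSD1 replicate 3, pdr3-deletion replicate 3 and V5-PSD1 replicate 1. They were the highest of their group for CKI1 in 4 of 4 groups, for EKI1 and CPT1 in 3 and for EPT1 in 2. For a further fit the libraries were cut into 7 sets of neighbouring numbers, each with at most 1 library of a group. The labels do not give these sets, and some adjoin without a gap in the numbers. With the sets as a block in the fit, CKI1 was called in none of the 6 comparisons. CPT1 was then called lower in PSD1 cells (−0.24, edgeR adjusted p = 0.0152) and pdr3-deletion cells (−0.22, 0.017) than in empty-vector cells. Without all 4 libraries the 6 pairs had r from 0.73 to 0.93.

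**Figure D4:**
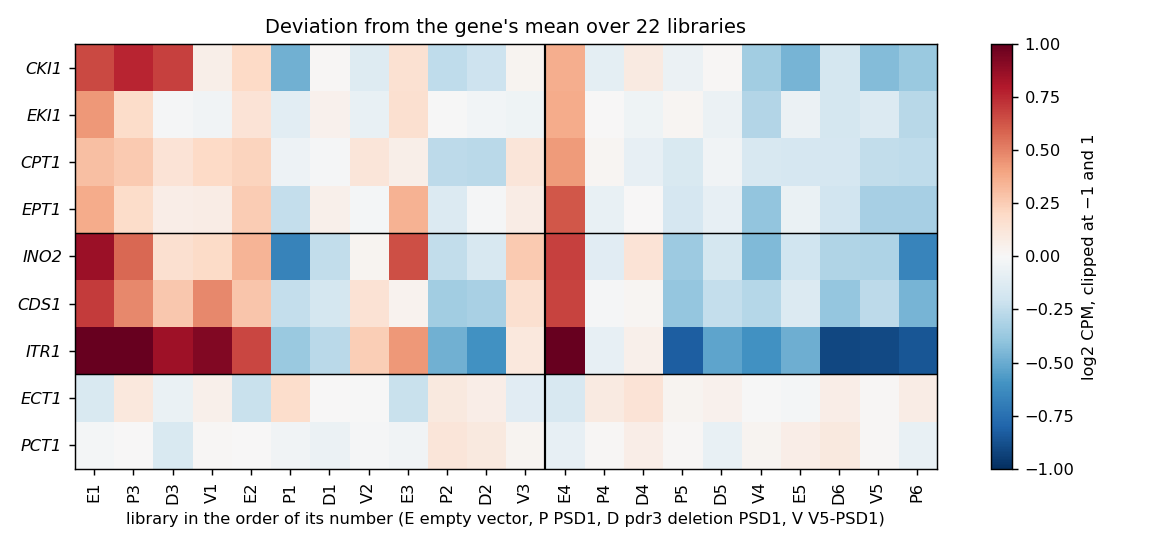
Deviation of log2 CPM from the mean of each gene over 22 libraries, red above and blue below, with colours clipped at −1 and 1 and libraries in the order of their numbers. CKI1, EKI1, CPT1 and EPT1 are above their means in libraries E1, P3 and E4 and below them in V4, V5 and P6, as are INO2, CDS1 and ITR1, and PCT1 and ECT1 do not follow this.

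The genes whose levels were most like those of each member were taken from 5542 genes by Pearson r over the 22 libraries. For CPT1 they were CDS1 (r 0.95), which encodes the CDP-diacylglycerol synthase, ITR1 (0.93), the inositol transporter, and SAM2 (0.92), an S-adenosylmethionine synthetase. For EPT1 they were INO2 (0.92), the lipid gene activator, MOT2 (0.91), a subunit of the Ccr4-Not complex, and EKI1 (0.91). For EKI1 they were EPT1 (0.91), MOT2 (0.88) and INO2 (0.85). Those of CKI1 were its divergent neighbour USB1 (0.96), FAS1 (0.95), a fatty acid synthase subunit, and YEL073C (0.95).

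ECT1 was most like MRPL44 (0.94) and MRP21 (0.94), which encode mitochondrial ribosomal proteins, and RDL2 (0.93). PCT1 had no gene as close, with URA1 (0.75), RRP46 (0.72) and RHO3 (0.71). Within the libraries numbered from 6 the r of PCT1 with RRP46 was 0.40. After group means were removed, r stayed between 0.79 and 0.86 for the genes named with ECT1 and between 0.90 and 0.93 for those named with CPT1.

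Of 6 genes of the CDP-diacylglycerol route, 2 were lower and none was higher in PSD1 than in empty-vector cells, no more than the 56.6% of all tested genes that passed there (29.7% higher, 26.9% lower), with a median log2 fold change of −0.19 for the list. PSD2, which encodes the second phosphatidylserine decarboxylase, fell from 151 ± 19.7 to 117 ± 19.9 CPM (−0.36 ± 0.11 SE, edgeR adjusted p = 0.00963). That call was lost in libraries numbered from 6 alone (−0.17, edgeR adjusted p = 0.186). CDS1 fell from 382 ± 97.8 to 275 ± 75 CPM (−0.46 ± 0.18, edgeR adjusted p = 0.0311), a call that was lost without empty-vector replicate 1 (−0.39) or 4 (−0.29) and without PSD1 replicate 1, 2, 5 or 6 (−0.39 to −0.43). In pdr3-deletion against empty-vector cells, where 47.5% of all genes passed, CDS1 was the 1 gene of the list called lower (−0.45, edgeR adjusted p = 0.0406), and this call was lost without empty-vector replicate 1 (−0.38) or 4 (−0.28) and without pdr3-deletion replicate 1, 2, 5 or 6 (−0.39 to −0.45). PSD2 was also called lower there by DESeq2 (−0.28, adjusted p = 0.0369), with the replicate block (−0.24, edgeR adjusted p = 0.0239) and with sets of neighbouring library numbers as a block (−0.28, 0.0326). No gene of the list passed in the other 4 comparisons in edgeR, DESeq2 or limma on the FPKM values. At an unadjusted p under 0.05, edgeR counted 1 in V5-PSD1 against empty-vector cells and 0 in the other 3. The widest values there were −0.40 for OPI3, a phospholipid methyltransferase, in V5-PSD1 over empty-vector cells, 0.26 and 0.22 for CHO1, the phosphatidylserine synthase, in PSD1 and pdr3-deletion over V5-PSD1 cells, and 0.10 for PSD2 in pdr3-deletion over PSD1 cells.

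Among 9 genes of headgroup supply and uptake, 2 were higher and 3 lower in PSD1 than in empty-vector cells (median −0.26), a share near the 56.6% of all genes that passed (29.7% higher, 26.9% lower). NTE1, a phospholipase that releases the headgroup of phosphatidylcholine as glycerophosphocholine, fell from 133 ± 5.97 to 82.1 ± 17.9 CPM with no overlap of the groups, as did 15.7% of all tested genes (−0.72 ± 0.13, edgeR adjusted p = 7.12e-05). HNM1, the choline and ethanolamine transporter, fell from 528 ± 113 to 337 ± 88.6 CPM (−0.63 ± 0.16, edgeR adjusted p = 0.00247). The HNM1 call was lost in libraries numbered from 5 alone (−0.585, edgeR adjusted p = 0.0652). PLB2, a phospholipase B, rose from 126 ± 30.4 to 161 ± 23.9 CPM (0.34 ± 0.14, edgeR adjusted p = 0.0432), a call lost without any of 10 libraries, empty-vector replicates 3 (0.22) and 4 (0.28) among them. In pdr3-deletion against empty-vector cells, where 47.5% of all genes passed, 2 genes were higher and 2 lower, HNM1 (−0.68, edgeR adjusted p = 0.00186) and NTE1 (−0.54, 0.00132) among the lower and PLB2 (0.48, 0.00755) among the higher. NTE1 was also lower in PSD1 than in V5-PSD1 cells (−0.45 ± 0.13, edgeR adjusted p = 0.00662), the 1 call of that list there. In that comparison 40.5% of all genes passed in either direction, and 1277 of those 2541 genes were higher. V5-PSD1 cells, where 3.03% of all genes passed, had 1 gene higher than the empty vector, DPL1, which encodes the lyase that releases ethanolamine phosphate from sphingoid bases (0.17 ± 0.05, edgeR adjusted p = 0.0432), and this call held in 4 of 13 other settings and in 10 of 22 fits without 1 library. None passed by edgeR, DESeq2 or limma in the remaining 2 comparisons, pdr3-deletion against PSD1 and against V5-PSD1 cells, with 0 and 1 gene at an unadjusted p under 0.05. NTE1 had the widest value in both, at 0.18 and −0.27.

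Of 9 genes that set diacylglycerol and phosphatidic acid, 4 were higher and none was lower in PSD1 than in empty-vector cells (median 0.09), where 56.6% of all genes passed, 29.7% higher and 26.9% lower. SPO7, a subunit of the phosphatase that activates the phosphatidate phosphatase Pah1, rose from 31.3 ± 2.15 to 41.2 ± 5.7 CPM (0.40 ± 0.09, edgeR adjusted p = 0.0011). That call was lost in libraries numbered from 6 alone (0.21, edgeR adjusted p = 0.0698). DGA1, a diacylglycerol acyltransferase, rose from 63.9 ± 1.82 to 82.7 ± 7.3 CPM (0.37 ± 0.07, edgeR adjusted p = 0.000108). For both genes every PSD1 library lay above every empty-vector library, as for 18.4% of all tested genes. DPP1, a diacylglycerol pyrophosphate phosphatase, rose from 86.9 ± 17.1 to 108 ± 26.5 CPM (0.34 ± 0.13, edgeR adjusted p = 0.0251), and this call was lost without empty-vector replicate 1, 3 or 5 or PSD1 replicate 1 (0.24 to 0.32). In this list 3 genes were higher in pdr3-deletion than in empty-vector cells, 3 in PSD1 than in V5-PSD1 cells and 2 in pdr3-deletion than in V5-PSD1 cells, where 47.5%, 40.5% and 29.7% of all genes passed in either direction, with DGA1 (0.36, 0.27 and 0.26) and APP1, a phosphatidate phosphatase of the actin cytoskeleton (0.23, 0.19 and 0.15), in each. Of all 6278 tested genes, 1640, 1277 and 972 were called higher in these comparisons. None passed in the other 2 comparisons by edgeR, DESeq2 or limma, with 1 gene at an unadjusted p under 0.05 in V5-PSD1 against empty-vector cells and 0 in pdr3-deletion against PSD1 cells. SPO7 was the third gene in PSD1 over V5-PSD1 cells (0.23, edgeR adjusted p = 0.0495), a call that held in 5 of 13 other settings and in 6 of 22 fits without 1 library, and it was the third in pdr3-deletion over empty-vector cells (0.29, 0.0149), a call lost without pdr3-deletion replicate 4 (0.058). DPP1 had the widest value where none passed, at 0.41 (edgeR adjusted p = 0.101) and −0.12. The APP1 call in pdr3-deletion over V5-PSD1 cells was lost without pdr3-deletion replicate 1, 3 or 4 or V5-PSD1 replicate 3 or 5 (0.13 to 0.15).

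Of 6 genes of inositol-responsive regulation, 3 were lower and none was higher in PSD1 than in empty-vector cells (median −0.55), a share near the 56.6% of all genes that passed (29.7% higher, 26.9% lower). INO2 fell from 71.4 ± 18.3 to 44.2 ± 16 CPM (−0.67 ± 0.19, edgeR adjusted p = 0.0052), a call lost in libraries numbered from 5 alone (−0.69, edgeR adjusted p = 0.0628). ITR1 fell from 2880 ± 1280 to 1580 ± 981 CPM (−0.85 ± 0.35, edgeR adjusted p = 0.0421) and OPI1, the repressor, from 182 ± 41.9 to 134 ± 29.4 CPM (−0.43 ± 0.16, edgeR adjusted p = 0.0281). Both calls were lost without empty-vector replicate 1 (−0.75 and −0.37) or 4 (−0.48 and −0.28), or without PSD1 replicate 1, 2, 5 or 6. INO2 (−0.55, edgeR adjusted p = 0.0203) and OPI1 (−0.46, 0.0246) were lower in pdr3-deletion cells too, where 47.5% of all genes passed. Both of these calls were lost without empty-vector replicate 1 (−0.49 and −0.39), empty-vector replicate 4 (−0.42 and −0.31) or pdr3-deletion replicate 1 (−0.49 and −0.42), and that of OPI1 without pdr3-deletion replicate 2 (−0.39). ITR1 did not pass in pdr3-deletion against empty-vector cells in the main edgeR fit, nor in either library series alone. It was called lower there by DESeq2 (−0.87, adjusted p = 0.0466), limma on log2(FPKM + 1) (−0.82, 0.0465) and edgeR with the replicate block (−0.78, 0.0425). In V5-PSD1 against empty-vector cells none passed in edgeR, DESeq2 or limma, and 3 had an unadjusted p under 0.05. INO1, the inositol-3-phosphate synthase, was at 1110 ± 1320 CPM there and at 3090 ± 2900 CPM in empty-vector cells (−2.34 ± 1.07, edgeR adjusted p = 0.265), a spread as large as its means. Between the groups with a PSD1 plasmid, tagged or untagged, no gene passed in DESeq2 or in edgeR with the library series as the term. In PSD1 against V5-PSD1, pdr3-deletion against V5-PSD1 and pdr3-deletion against PSD1 cells, limma called 1, 1 and 0 genes, and 1, 0 and 0 had an unadjusted edgeR p under 0.05. The widest values were those of INO1 in the first pair of these comparisons, at 0.84 and 0.81, and of INO2 in the last, at 0.11.

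Several list genes passed when sets of neighbouring library numbers replaced the library series in the edgeR fit. These sets were cut here, with at most 1 library of a group in each. The inositol list then had 3 calls among 6 genes in PSD1 against V5-PSD1 cells and 2 in pdr3-deletion against V5-PSD1 cells, against 0 in both before. Over all 6278 tested genes, 2676 and 2227 passed in these comparisons in that fit, against 2541 and 1864 before. OPI1 was lower in both (−0.19, adjusted p = 0.047, and −0.20, 0.0328) and ITR1 in the first (−0.35, 0.0461). CDS1 (−0.27, 0.0172, and −0.24, 0.0272) and HNM1 (−0.34, 0.00332, and −0.35, 0.00236) were also lower in both. Against the empty vector, 3718, 3284 and 422 of all tested genes passed in that fit in PSD1, pdr3-deletion and V5-PSD1 cells. In these comparisons INO1 was lower in PSD1 (−1.35, 0.00523) and pdr3-deletion cells (−1.13, 0.015), and ITR1 in pdr3-deletion (−0.78, 9.45e-05) and V5-PSD1 cells (−0.51, 0.0302). In V5-PSD1 cells HNM1 was lower (−0.30, 0.0382) and PLB2 (0.39, 0.0145) and DPP1 (0.42, 0.0426) higher than with the empty vector, and SPO7 no longer passed in PSD1 over V5-PSD1 cells (0.21, 0.108). In pdr3-deletion against PSD1 cells no list gene passed in this fit either. Which libraries were prepared together is not given in the labels.

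CATGTGAA was in the promoter windows of 4 of these 6 genes, of 3 of 6 in the CDP-diacylglycerol route, of 1 of 9 in headgroup supply and of 0 of 9 in the diacylglycerol list. EPT1, whose level was the most like that of INO2 among the 6 members, was without it, and CKI1, EKI1 and CPT1 had it. The longer form of the element was in no gene of these lists and in no member.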

How the data were processed

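PolyA RNA of 22 libraries was analysed. The authors deposited expected counts per gene as whole numbers, and log2 values of FPKM plus 1 (the 1 being a pseudocount), as read per the file headers and from the numbers. Tools listed in the submitters' processing notes were RSEM 1.3.0, STAR 2.5.3a and SAMtools 1.3, beside the build sacCer3, with no role for each. The sources used here give neither the annotation nor the strand setting of the counting. No annotated gene overlapped any of the 6 members. Columns were joined to samples by library number, and 2 columns had a replicate number unlike the label. Of 7126 entries, 6048 matched the R64 annotation, and the other 1078 held 1.68% to 3.05% of counts. No replicates were duplicates: the closest of 50 pairs differed by a chi-square of 14.7 per degree of freedom.

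edgeR 4.0.16 (R 4.3.3) fitted a quasi-likelihood model to all libraries, with group and library series (first digit of the library number) as terms, TMM scaling, filterByExpr (6278 genes) and Benjamini-Hochberg adjustment over all genes at 0.05. CPM used TMM library sizes, and log2 CPM a prior count of 2. Ratios had 0.5 added to each count. Precision is limited by replicate number, and the lowest count of a member in a library was 423. Alternatives used other scalings, no filter, other model terms, DESeq2 1.42.0, limma 3.58.1 on log2 of FPKM plus 1 or plus 0.1, each library series alone and each library left out. Ratios were tested with scipy 1.17.1 and figures drawn with matplotlib 3.10.9 (Python 3.11.15, numpy 2.4.6, pandas 2.3.3). The edgeR fit and the ratio tests were run on simulated data with known differences. The simulated ratio shift was wider than the observed ones, and fewer genes were changed than were called in PSD1 against empty-vector cells. These runs do not show how the tests behave with ratio shifts as small, or changes as widespread, as those here.

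The members, lists and tests were chosen with earlier results of these data known. The text names all members, and from each of 4 lists up to 3 genes per comparison with the widest called difference, or 1 where none passed. For likeness it names 3 genes per member among annotated genes with a mean of at least 5 CPM. Same-numbered libraries deviated together in every pair between pdr3-deletion and PSD1 cells (r from 0.15 to 0.67 over 6 pairs), so the numbers were taken to pair libraries there. The intervals given for that comparison come from the main edgeR fit, which has no term for the pairing. With replicate number as the term, no member passed there either. Between pdr3-deletion and V5-PSD1 cells r was also above 0 in all 5 pairs, at 0.05 to 0.24, and pairing was not used there.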

Additional observations from a re-analysis of the deposited data

Results flagged for a closer look

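CKI1 stood apart in PSD1 replicate 3, at 248 CPM, and in pdr3-deletion replicate 3, at 235 CPM, each by a gap wider than Dixon's 95% limit for 6 values. The log2 count ratio of CKI1 over EKI1 stood apart in the same libraries, at 2.09 in PSD1 replicate 3 and 2.20 in pdr3-deletion replicate 3. These were 4 of 36 sets of values examined, and chance alone marks about 0.05 of such sets. The ratio shares its CKI1 counts with the level, so the 4 are not independent. Both are among the 4 libraries with the lowest numbers, where CKI1 was the highest of its group in 4 of 4 groups. What these numbers stand for was not tested.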

How the results depend on the processing

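No called difference of a member changed direction under any alternative. The number of members called in PSD1 against empty-vector cells was 3, and it became 1 in libraries numbered from 6 alone and 2 to 5 without 1 library, with 5 without PSD1 replicate 3. In V5-PSD1 against empty-vector cells it was 2, and it became 0 in either library series alone, 0 with only the 2 groups fitted, and 0 to 2 without 1 library, with 0 without empty-vector replicate 4 or V5-PSD1 replicate 4. In pdr3-deletion against empty-vector cells it was 3, and became 0 in either series alone and 1 to 4 without 1 library, with 1 without empty-vector replicate 4. In PSD1 against V5-PSD1 cells it was 0 and became 1 with limma on log2(FPKM + 1) and on log2(FPKM + 0.1), and stayed at 0 without any 1 library, as in the 2 comparisons of pdr3-deletion with PSD1 and V5-PSD1 cells. In libraries numbered from 5 alone, the calls of the named list genes in pdr3-deletion against empty-vector cells were all lost. A series alone has fewer libraries.

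The difference of the PCT1 over ECT1 ratio without 1 library ran from −0.26 to −0.21 for PSD1 and −0.15 to −0.10 for V5-PSD1 over the empty vector, and from 0.02 to 0.07 for the deletion over PSD1. That of CPT1 over EPT1 ran from 0.16 to 0.23, from 0.23 to 0.29 and from −0.13 to −0.05, and that of CKI1 over EKI1 from −0.15 to 0.039, from −0.12 to 0.042 and from 0.05 to 0.29. CPT1 over EPT1 passed for PSD1 without PSD1 replicate 2 (0.23), and PCT1 over ECT1 for V5-PSD1 without V5-PSD1 replicate 3 (−0.15).

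With the replicate block the members called stayed at 3, 2, 0, 3, 0 and 0 in the 6 comparisons. Outside pdr3-deletion against PSD1 cells, the labels tie no meaning to a shared number and the r of same-numbered pairs reached lower (lowest r of a comparison −0.22 to 0.05, highest 0.18 to 0.65). Same-numbered empty-vector and V5-PSD1 libraries, with the highest of these (0.65), mostly also fell in 1 set of neighbouring library numbers. With the replicate block, genes called over all in V5-PSD1 against empty-vector cells rose from 190 to 293. That count was 14 in libraries numbered from 5, 109 with the 2 groups alone and 422 with sets of neighbouring library numbers as a block, and 107 to 383 without 1 library. In libraries numbered from 5 alone, the counts over all genes became 2041 from 3552 (PSD1 over empty vector), 760 from 2984 (deletion over empty vector), 600 from 2541 (PSD1 over V5-PSD1), 137 from 1864 (deletion over V5-PSD1) and 4 from 26 (deletion over PSD1). The last was 12 with the 2 groups alone and 41 with DESeq2.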
